A study of Homo sapiens with 19 samples.

Results

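MHC class I antigen presentation was examined through 7 genes, HLA-B, HLA-C, HLA-E, B2M, TAP1, PSMB8 and PSMB9, of the 32703 gene identifiers listed in all 19 matrices. The genes were chosen by name and matched by Ensembl identifier, and each had UMIs (molecular tags that let copies of 1 captured RNA be counted once) in every library. Single-cell RNA-seq with 10x Genomics 3′ version 3 chemistry was run on human liver organoids, small cultured tissues grown from the wild-type human pluripotent stem cell line W01. All 9 groups share this 1 line. Organoids in ULA cultures were collected on day 21 (n = 3) and day 34 (n = 2). OS organoids (written here as shaker organoids) were collected on day 25 in 7 groups of 2. A TGFB1 group (10 ng/ml), a PA group (500 µM) and an OA group (500 µM) each had a control of its own, and the remaining group was untreated. The labels spell out neither PA nor OA and do not say what the controls received. TGFB1 and PA were given for 5 days after 20 days of culture. The labels name OA only in titles and treatment fields, with no length of treatment. Day 34 ULA and shaker organoids received a further wash and 10 more minutes of trypsin than day 21 organoids. The labels do not say whether replicates were separate organoid batches, so p-values measure the spread between these libraries, which may be technical.

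Class I molecules display short peptides from inside the cell to cytotoxic T cells and natural killer cells. The proteasome cuts proteins into peptides, and its induced subunits PSMB8 and PSMB9 replace standard catalytic subunits to form the immunoproteasome. TAP1 is a subunit of the transporter that carries peptides into the endoplasmic reticulum. There they are loaded on a heavy chain such as HLA-B, HLA-C or the less variable HLA-E, each paired with the invariant light chain B2M. Nearly all nucleated cells carry the pathway, hepatocytes at low levels in healthy liver, and interferon and TNF are known to raise it through factors such as IRF1, NLRC5 and NF-kappa B.

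On GRCh38 (GENCODE v44), 6 of the 7 genes lie on chromosome 6 and B2M lies on chromosome 15. HLA-E is at chr6:30489509-30494194, HLA-C at chr6:31268749-31272130 and HLA-B at chr6:31353872-31367067. PSMB8 is at chr6:32840717-32844679, TAP1 at chr6:32845209-32853816 and PSMB9 at chr6:32844136-32859851, whose annotated span overlaps both neighbours on the opposite strand. The span of PSMB9 also overlaps the long noncoding gene PSMB8-AS1 on its own strand, and that of HLA-B overlaps MIR6891 and DHFRP2 on its own. How the authors' counting assigned reads in these overlaps is not given in the sources used here. B2M is at chr15:44711358-44718851. No window of 90 bases in the last 500 bases of the 7 canonical transcripts was shared with a transcript of another gene. How the authors' counting treated reads from the W01 alleles of these variable genes was not analysed here.

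The RefSeq promoter table (GRCh38.p14) matched 6 of the 7 genes, and 4 promoters are shown: those of HLA-B, raised with TGFB1 but not called with OA, of B2M, raised with OA but not called with TGFB1, and of HLA-C and TAP1, raised with both. Each run is the 250 bases before a transcription start, on the gene's strand. Capitals mark matches, on either strand, to the letters of 4 motifs: kappa B (GGG, any 2 bases, T, any 2 bases, CC), ISRE (GAAA, any 2 bases, GAAA), GAS (TTCNNNGAA) and Y box (CCAAT).
HLA-B, chr6:31357180-31357429, minus strand: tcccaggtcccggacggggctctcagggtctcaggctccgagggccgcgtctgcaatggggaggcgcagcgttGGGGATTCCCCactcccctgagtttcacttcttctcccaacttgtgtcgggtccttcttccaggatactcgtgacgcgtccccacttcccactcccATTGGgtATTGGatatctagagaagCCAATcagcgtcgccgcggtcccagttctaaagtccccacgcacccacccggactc
HLA-C, chr6:31272093-31272342, minus strand: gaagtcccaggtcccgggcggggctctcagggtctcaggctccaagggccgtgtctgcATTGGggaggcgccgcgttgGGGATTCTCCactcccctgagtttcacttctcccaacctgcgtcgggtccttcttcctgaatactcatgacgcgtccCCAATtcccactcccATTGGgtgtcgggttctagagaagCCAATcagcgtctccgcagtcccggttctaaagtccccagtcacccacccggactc
TAP1, chr6:32853705-32853954, minus strand: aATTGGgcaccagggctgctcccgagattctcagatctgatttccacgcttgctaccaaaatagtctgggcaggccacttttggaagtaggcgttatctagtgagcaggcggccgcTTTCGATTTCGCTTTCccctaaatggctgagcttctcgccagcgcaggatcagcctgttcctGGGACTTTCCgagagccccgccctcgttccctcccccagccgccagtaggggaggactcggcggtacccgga
B2M, chr15:44711267-44711516, plus strand: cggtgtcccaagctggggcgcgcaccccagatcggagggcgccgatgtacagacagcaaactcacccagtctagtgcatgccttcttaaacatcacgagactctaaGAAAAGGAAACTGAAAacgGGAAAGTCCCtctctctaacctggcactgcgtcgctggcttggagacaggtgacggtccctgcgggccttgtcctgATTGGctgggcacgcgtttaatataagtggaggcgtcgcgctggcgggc
All 4 windows shown held kappa B letters, which occur in 19.675% of the 35116 promoters of the table. The windows of PSMB8 and PSMB9, which are not shown, held none, although PSMB8, like HLA-B, was called with TGFB1 and not with OA. TAP1 and B2M each held 2 overlapping ISRE matches, and neither HLA-B nor HLA-C held these exact letters. Any ISRE match, single or repeated, was found in 3.021% of promoters. In HLA-B the kappa B letters matched at 2 overlapping placements, the first of them on both strands. Y box letters occurred in all 4 windows and in 32.008% of promoters. The window of PSMB9 (chr6:32853942-32854191, plus strand) held only a Y box. It overlaps the TAP1 window on the opposite strand, and its Y box is the same bases as that of TAP1. The ISRE and kappa B matches of TAP1 also lie upstream of PSMB9, beyond its 250 bases. GAS letters (6.567% of promoters) were found upstream of the other annotated start sites of PSMB8 and TAP1. They were the only match for PSMB8, whose first window held none of the 4 motifs. A match is a description of letters and shows no binding. A miss does not show that an element is absent, since looser forms of the motifs were not searched.

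Filtering on genes (500 or more) and on mitochondrial UMIs (20% or less) left 3089 to 12427 cells per library, with 6878407 to 88512435 UMIs in the shared genes. TGFB1 control replicate 1 and PA control replicate 1 were the shallowest libraries. At most 43 barcodes were shared by a pair of libraries, and at most 0.553% of the smaller library in another pair (25 barcodes). Among epithelial markers EPCAM and the keratins were present in every group, as were collagens of mesenchymal cells. PTPRC, the pan-leukocyte marker, had 0 UMIs with OA, HLA-DRA, a class II chain of professional antigen-presenting cells, had 0 in 5 of 9 groups, and the B cell marker MS4A1 had 0 in 8 of 9. These genes were picked from longer lists, and their zeros do not stand for the lists. Other haematopoietic and class II markers did have UMIs, LYZ among them. Levels of LYZ and sums of the class II genes are given below for some comparisons, and not the level of every marker. Levels below are CPM, UMIs summed over the cells of a library and scaled to the same total of shared-gene UMIs.

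Among shaker organoids each member had its highest mean level with TGFB1 or OA. These groups come from different kinds of matrix. OA, OA control and untreated libraries list 36601 genes and name Cell Ranger 6.0.2 in their headers. The TGFB1 and PA libraries and their controls list 33538 genes and name 3.0.2. Groups without an agent already differed between these kinds in B2M, as given below, and the order across them was not tested. HLA-B averaged 92.5 CPM ± 18.5 (SD, n = 2) with TGFB1, then 55.2 with PA, 49.2 in the PA control, 36.5 in the OA control, 31.7 untreated, 28.3 in the TGFB1 control and 23.7 with OA. Only the TGFB1 group stood clear of its neighbour at the top of that order, and OA stood below the TGFB1 control without overlap. HLA-C averaged 364 CPM ± 24 (SD, n = 2) with TGFB1 and 320.1 ± 21.5 (SD, n = 2) with OA. The other 5 shaker groups averaged 176 to 203 CPM of HLA-C and overlapped their neighbours. HLA-E averaged 107.0 CPM ± 6.6 (SD, n = 2) with TGFB1, 73.1 with OA, and 47.5 to 60.004 elsewhere, where each group overlapped the next, OA included.

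B2M gave another order. Its mean was 3678 CPM ± 19.5 (SD, n = 2) with OA, against 1423 in untreated organoids, 1334 in the OA control, 1204 with PA, 967 in the TGFB1 control, 941 with TGFB1 and 853 in the PA control. OA stood apart from all other groups, and the PA control lay just below TGFB1 without overlap. TAP1 averaged 9.33 CPM ± 0.34 (SD, n = 2) with OA, 7.42 ± 0.50 (SD, n = 2) with TGFB1, 5.92 in the OA control and 4.34 in untreated organoids, with no overlap between these neighbours. TAP1 was at 4.14 CPM with PA and 4.13 in the TGFB1 control, which overlapped, and lowest at 2.41 in the PA control.

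PSMB8 averaged 34.7 CPM ± 5.0 (SD, n = 2) with TGFB1, then 22.6 with OA, 20.8 in the OA control, 19.7 untreated and 19.6 in the TGFB1 control, the last 4 overlapping in turn. PSMB8 was lower in both groups of the PA experiment, at 10.8 CPM with PA and 8.56 in the PA control. PSMB9 was sparse, with 4 to 122 UMIs per library, and its shaker means ran from 0.547 CPM in the TGFB1 control to 1.83 with OA with every group overlapping the next. In ULA organoids HLA-B, HLA-C, B2M, TAP1 and PSMB8 were lower in all 5 libraries than in any of the 14 shaker libraries. Mean HLA-B was 13.2 CPM ± 3.5 (SD, n = 3) on day 21 and 13.2 ± 5.6 (SD, n = 2) on day 34, and mean B2M was 610 ± 49.6 (SD, n = 3) and 474 ± 43.0 (SD, n = 2). This contrast was not tested, since the ULA matrices list 58721 genes and the shaker matrices 33538 or 36601.

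**Figure D1:**
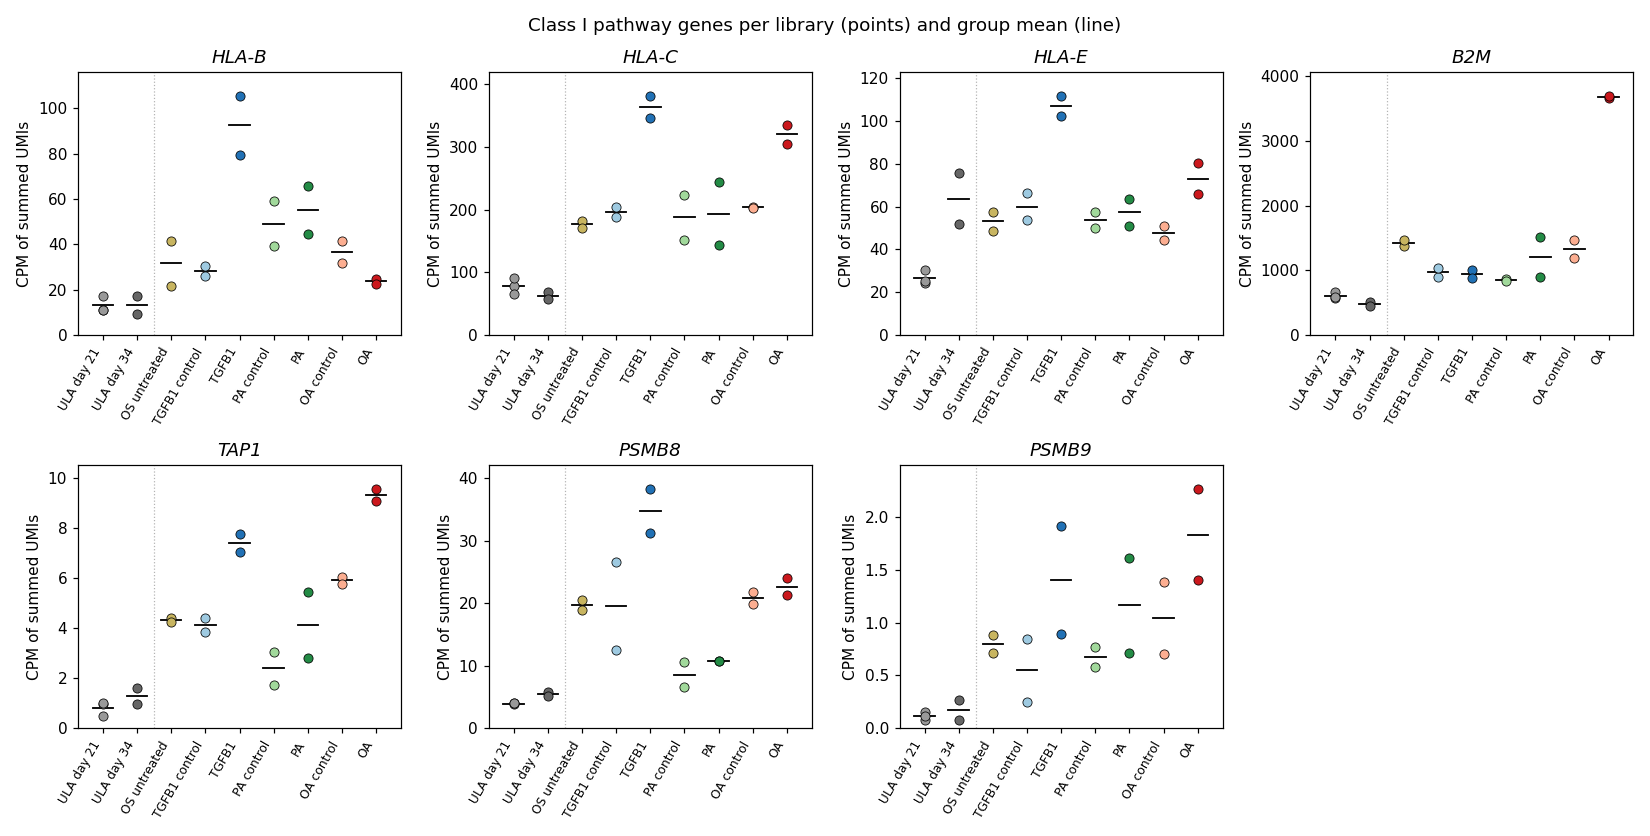
CPM of summed UMIs (vertical axes, linear, from 0) of each member in the 9 groups (horizontal axes); points are libraries, lines are group means, and the dotted line divides ULA from shaker (OS) organoids. HLA-B, HLA-C, HLA-E and PSMB8 were highest with TGFB1, while B2M was at 3665 and 3692 CPM with OA and at most 1515 elsewhere.

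TGFB1, the cytokine transforming growth factor beta 1, was compared with its own control to ask how a fibrotic stimulus changed gene expression. The 3 classical and nonclassical heavy chains among the members, the transporter subunit TAP1 and the immunoproteasome subunit PSMB8 rose, and the light chain B2M did not pass the test. HLA-B was at 26.1 and 30.5 CPM in control replicates 1 and 2 and at 105.5 and 79.4 CPM with TGFB1. The groups were far apart, and the fitted change was 3.71-fold (log2 1.89 ± 0.296 SE, n = 2 against 2, edgeR adjusted p = 0.000633). HLA-C was at 204 and 188 CPM in the controls and at 381 and 347 CPM with TGFB1 (log2 1.09 ± 0.248 SE, edgeR adjusted p = 0.00747). HLA-E, whose product presents signal peptides of other class I chains to natural killer cell receptors, was at 53.8 and 66.2 CPM in the controls and at 112 and 102 CPM with TGFB1. Its groups did not overlap and it rose by 1.02 ± 0.205 SE on the log2 scale (edgeR adjusted p = 0.00357).

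TAP1 was at 3.86 and 4.40 CPM in the TGFB1 controls and at 7.77 and 7.07 CPM with TGFB1. It rose by 1.02 ± 0.30 SE (log2, edgeR adjusted p = 0.0278). PSMB8 was at 12.6 and 26.6 CPM in the controls, which lay far from each other, and at 38.2 and 31.2 CPM with TGFB1 (log2 0.97 ± 0.316 SE, edgeR adjusted p = 0.0432). PSMB9 was at 0.253 and 0.842 CPM in the controls and at 1.91 and 0.893 CPM with TGFB1, and did not pass the test (log2 1.33 ± 0.602 SE, edgeR adjusted p = 0.13). B2M was at 896 and 1039 CPM in the controls and at 998 and 883 CPM with TGFB1. Its groups overlapped, with a log2 difference of 0.15 ± 0.284 SE (edgeR adjusted p = 0.742) that changed sign, to -0.04, when libraries were scaled by their totals alone.

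Of the 7 members, 5 were called higher and 0 lower, against 10.9% of 19361 genes called higher and 22.2% called in either direction. The median log2 change was 1.02 over the members and -0.05 over all genes. With totals in place of TMM scaling the median of all genes was -0.24, the share of calls that were higher fell from 49% to 31.6%, and 3 members were called: TAP1 (adjusted p = 0.0647) and PSMB8 (adjusted p = 0.0604) in edgeR no longer passed. Without TGFB1 control replicate 1 or without TGFB1 replicate 1 the calls were 2 of 7, HLA-B and HLA-E, and without TGFB1 replicate 2 they were 3, with TAP1 and PSMB8 lost. Summed mesenchymal markers (2 of 6 tested higher) were 1456 to 1805 CPM with TGFB1 against 587 to 608 in the control, and hepatocyte markers (3 of 5 lower) 234 to 240 against 750 to 775. Haematopoietic markers summed to 32.7 to 44.2 CPM against 200 to 228 (1 of 2 tested lower). Nearly all of that sum was LYZ, at a mean of 205 CPM in the control and 32.0 with TGFB1, which EPCAM-positive cells also held. Among the other haematopoietic markers PTPRC was at a mean of 0.0191 and 0.0241 CPM, MS4A1 at 0 in both groups and CD14 at 0 with TGFB1. Levels of CD68 and CD3E in these groups are not given here. The part of the mesenchymal, hepatocyte and haematopoietic markers was not tested.

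In OA organoids the light chain moved most, and HLA-B, which rose with TGFB1, did not pass the test. B2M was at 1475 and 1193 CPM in OA control replicates 1 and 2 and at 3665 and 3692 CPM with OA. The OA libraries nearly coincided, and B2M rose 3.46-fold (log2 1.79 ± 0.293 SE, n = 2 against 2, edgeR adjusted p = 0.000336). HLA-C was at 205 and 202 CPM in the OA controls and at 335 and 305 CPM with OA (log2 0.99 ± 0.248 SE, edgeR adjusted p = 0.00601). HLA-E was at 44.2 and 50.9 CPM and at 80.1 and 66.0 CPM with OA (log2 0.97 ± 0.204 SE, edgeR adjusted p = 0.0021). Neither gene's groups overlapped.

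TAP1 was at 6.06 and 5.78 CPM in the OA controls and at 9.57 and 9.08 CPM with OA (log2 0.99 ± 0.291 SE, edgeR adjusted p = 0.0146). HLA-B was at 31.7 and 41.4 CPM in the controls and at 24.9 and 22.5 CPM with OA. Its OA libraries both lay below the controls, yet the difference did not pass the test (log2 -0.27 ± 0.286 SE, edgeR adjusted p = 0.469). PSMB8 was at 21.8 and 19.9 CPM in the controls and at 23.97 and 21.3 CPM with OA, which overlapped (edgeR adjusted p = 0.261). PSMB9 was at 1.39 and 0.706 CPM in the controls and at 2.26 and 1.40 CPM with OA (edgeR adjusted p = 0.119).

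With OA, 4 of 7 members were called higher and 0 lower, against 21.7% of 19361 genes called higher and 43.3% called in either direction. The median log2 change was 0.99 over the members and -0.08 over all genes. Library totals moved the median of all genes to -0.43 and the share of higher calls from 50.1% to 30.6%, and left TAP1 at a log2 change of 0.65 (edgeR adjusted p = 0.09). Without OA control replicate 2 only B2M and HLA-E stayed called, and without OA replicate 1 TAP1 was lost. Cell makeup and hepatocyte genes moved with OA. Cells with EPCAM and without collagen UMIs were 88.4% with OA (both libraries) against 23.1% and 32.4% in the controls. Cells with UMIs of both were 4.47% to 5.60% with OA against 26.7% to 32.0% in the controls, and are left out of the cell classes below. Cells with more EPCAM than collagen UMIs were 90.4% and 90.5% with OA against 45.2% and 41.5% in control replicates 1 and 2. Summed hepatocyte markers (5 of 5 tested higher) were 14897 to 16056 CPM against 1442 to 2097. Mesenchymal markers (6 of 6 lower) summed to 98.99 to 127 CPM with OA against 2385 to 3941. Pluripotency markers (2 of 4 lower) summed to 0.230 to 0.260 CPM against 2.12 to 5.09, and of 2 tested haematopoietic markers CD68 was higher (log2 2.90), while PTPRC, CD14 and MS4A1 were at 0 with OA. Their part in the whole-library changes was not tested, and in whole libraries fewer cells of a type and less RNA per cell cannot be told apart.

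No member was called in the other shaker comparisons. With PA, B2M was at 894 and 1515 CPM in replicates 1 and 2 against 874 and 832 CPM in the PA control (log2 0.55 ± 0.285 SE, edgeR adjusted p = 1). TAP1 was at 2.82 and 5.46 CPM against 1.74 and 3.07 CPM (log2 0.78 ± 0.321 SE, edgeR adjusted p = 1), with unadjusted p-values of 0.0311 for TAP1 and 0.0762 for B2M. In both genes the higher PA value came from replicate 2. The other 5 members differed by log2 0.11 to 0.83. The edgeR test called 0.0465% of genes with PA (9 genes, and 540 at an unadjusted p under 0.05), and 0 of 7 members passed, as also in DESeq2. The OA control against untreated organoids, a comparison that shares the OA control libraries with the OA comparison, gave member differences of log2 -0.02 to 0.60 and 0 of 7 calls in edgeR and in DESeq2, against 0.573% of genes (2819 at an unadjusted p under 0.05).

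ULA organoids were compared between day 21 and day 34 to follow longer culture. All day 34 libraries also had the further wash and 10 more minutes of trypsin, so culture length and dissociation cannot be told apart. HLA-E was at 30.3, 24.5 and 25.5 CPM in day 21 replicates 1 to 3 and at 75.4 and 52.04 CPM on day 34. The groups did not overlap, and HLA-E rose 2.19-fold (log2 1.13 ± 0.20 SE, n = 2 against 3, edgeR adjusted p = 0.0127). The other heavy chains did not pass the test. HLA-C was at 78.8, 65.3 and 91.0 CPM on day 21 and at 68.8 and 57.3 CPM on day 34 (log2 -0.44 ± 0.201 SE, edgeR adjusted p = 0.171), and HLA-B overlapped between days (edgeR adjusted p = 0.823). B2M was at 571, 666 and 593 CPM on day 21 and at 504 and 444 CPM on day 34. Both day 34 values of B2M were lower, but the test did not pass (log2 -0.49 ± 0.18 SE, edgeR adjusted p = 0.105).

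HLA-E was the 1 member called of 7, against 9.6% of 18762 genes called higher and 17.5% called in either direction. Leaving out any 1 day 21 library ended its call (edgeR adjusted p = 0.0557 to 0.074), while its log2 change stayed between 1.07 and 1.22. Library totals moved the median of all genes from 0.02 to 0.14 and the share of higher calls from 54.8% to 67.7%, and HLA-E stayed called at 1.25. PSMB8 was at 3.94, 4.01 and 3.98 CPM on day 21 and at 5.83 and 5.13 CPM on day 34, without overlap and without passing the test (edgeR adjusted p = 0.286). TAP1 and PSMB9 rested on 31 to 144 and 6 to 24 UMIs per ULA library and did not pass (edgeR adjusted p = 0.399 and 0.599). Over the whole series they had 12 to 516 and 4 to 122 UMIs per library. Hepatocyte markers (4 of 5 tested lower) summed to 38.6 to 333 CPM on day 34 against 1652 to 1808 on day 21. Pluripotency markers (4 of 4 lower) summed to 4.67 to 5.19 CPM against 30.9 to 57.6, and haematopoietic markers (0 of 2 tested called), again nearly all LYZ, to 2.47 to 36.6 against 90.1 to 168. The part of these cell types was not tested.

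**Figure D2:**
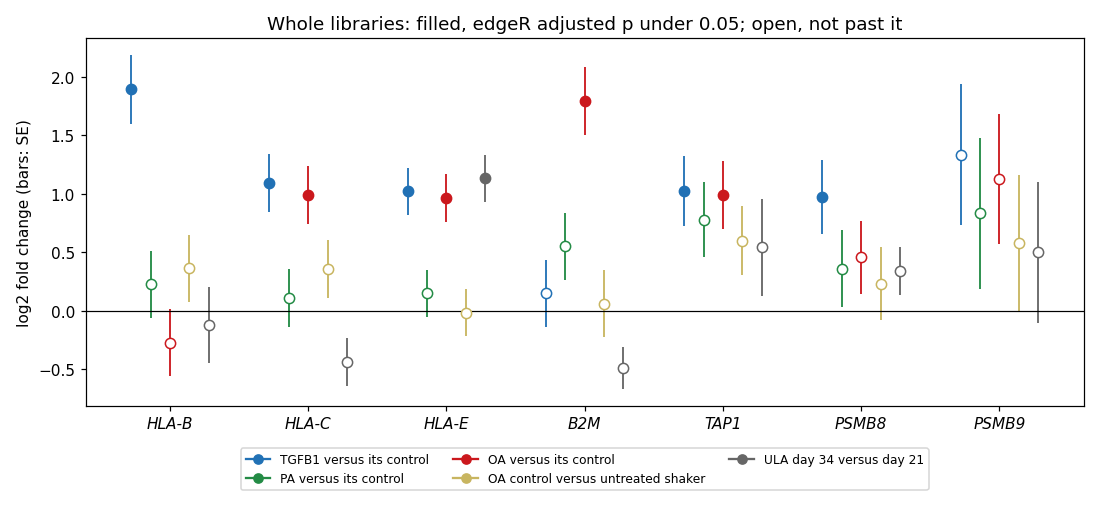
Log2 fold change (vertical axis) of each member (horizontal axis) in the 5 whole-library comparisons, coloured by comparison; bars are standard errors, and filled points passed an edgeR adjusted p of 0.05. HLA-B passed with TGFB1 alone (log2 1.89) and B2M with OA alone (log2 1.79), while HLA-E passed with TGFB1, with OA and in ULA day 34.

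Other genes of the pathway were read from lists written down with earlier results of these data known. As background, 10.9% of all genes were called higher with TGFB1 and 21.7% with OA. Of the 8 peptide loading genes, 4 rose with TGFB1, led by the chaperone CALR (log2 1.66 ± 0.27 SE, edgeR adjusted p = 0.00093) and the disulphide isomerase PDIA3 (1.299), with CANX (0.79) and the bridging factor TAPBP (0.67). With OA 7 of 8 rose. The largest changes were in the TAPBP homologue TAPBPL (log2 2.72 ± 0.47 SE, edgeR adjusted p = 0.0005) and the peptide trimming enzymes ERAP2 (1.77) and ERAP1 (1.76). PDIA3 (1.40), TAP2, the partner subunit of TAP1 (1.18), and CANX (0.96) also rose, and CALR did not pass (0.43, edgeR adjusted p = 0.22). The list's median log2 change was 0.61 with TGFB1 and 1.29 with OA, beside -0.05 and -0.08 over all genes.

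The 3 further heavy chain genes included 2 called higher with TGFB1, among them HLA-F (log2 2.09 ± 0.64 SE, edgeR adjusted p = 0.034), and 1 called higher with OA, where HLA-F did not pass and where 0 of 3 were called in EPCAM-positive cells in edgeR. CD1D, a lipid-presenting partner of B2M, was lower with OA (log2 -3.49 ± 0.47 SE, edgeR adjusted p = 7.8e-05). The neonatal Fc receptor chain FCGRT was higher with OA (0.77, edgeR adjusted p = 0.044). Neither passed in EPCAM-positive cells with OA (CD1D 0.15 ± 1.08 SE, edgeR adjusted p = 0.933, and FCGRT 0.44, edgeR adjusted p = 0.277). MR1, which presents vitamin metabolites, was higher in ULA day 34 (1.56, edgeR adjusted p = 0.0098). Of the other immunoproteasome genes, the subunit PSMB10 (1.00) and the activator subunit PSME1 (0.70) rose with OA, and PSMB10 (-0.93) and PSME2 (-0.83) were lower in ULA day 34. In collagen-positive ULA cells PSME2 passed (-0.75, edgeR adjusted p = 0.0201) and PSMB10 did not (-0.83, edgeR adjusted p = 0.0604). In EPCAM-positive ULA cells, with 1 day 34 library, PSMB10 was at -1.27 and PSME2 at -0.24. In EPCAM-positive cells with OA PSMB10 (0.80, edgeR adjusted p = 0.0555) and PSME1 (0.31, edgeR adjusted p = 0.233) did not pass. None of these 3 genes passed with TGFB1 in edgeR. Among the standard subunits PSMB5, PSMB6 and PSMB7 the whole-library comparisons gave 1 call, PSMB7 higher with TGFB1 (0.81, edgeR adjusted p = 0.034), which was also called in EPCAM-positive cells (0.83, edgeR adjusted p = 0.0251).

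Among the regulators reported here, those that rose with OA were IRF1, a transcription factor of class I genes (log2 1.98 ± 0.20 SE, edgeR adjusted p = 9.2e-06), the NF-kappa B subunit NFKB1 (1.36) and IRF2 (0.90). The RFX complex members RFXANK (-0.997) and RFXAP (-0.89) were lower with OA. In EPCAM-positive cells with OA IRF2 (0.66, edgeR adjusted p = 0.0633) and RFXAP (-0.62, edgeR adjusted p = 0.114) did not pass. With TGFB1 IRF1 stood at 0.00, and NLRC5, the class I transactivator, did not pass (1.26, edgeR adjusted p = 0.14). In ULA day 34 NLRC5 (1.57) and STAT2 (0.84) were higher. Of the ligands only TNF was abundant enough to test. TNF averaged 5.51 CPM ± 0.76 (SD, n = 2) with TGFB1 against 1.59 ± 0.19 (SD, n = 2) and 6.38 ± 0.59 (SD, n = 2) with OA against 1.09 ± 0.30 (SD, n = 2). It was highest with PA, at 16.8 ± 3.3 (SD, n = 2) against 4.57 ± 1.15 (SD, n = 2) in the PA control (log2 1.99 ± 0.31 SE, edgeR adjusted p = 0.041). The part of TNF in the member levels was not tested.

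The receptors and kinases through which interferon and TNF act gave 9 of 10 higher with OA (7 of 10 in EPCAM-positive cells), beside 21.7% of all genes (19.1% in those cells), among them IFNGR1 (log2 2.84 ± 0.33 SE, edgeR adjusted p = 2.6e-05), JAK2 (1.96) and IFNAR1 (1.42). With TGFB1 5 of the 10 were higher, beside 10.9% of all genes, led by the kinase JAK1 (1.70), and IL10RB was lower (-1.43). Of the 11 interferon-stimulated genes 3 were higher with OA, OAS1 (3.19), GBP2 (1.94) and IFI27 (1.61), and 4 were lower, led by XAF1 (-2.67), IFIT1 (-2.37) and IFI6 (-1.54). All genes gave 21.7% higher and 43.3% either way. In EPCAM-positive cells 4 of 10 tested were higher and 1 was lower. With TGFB1 6 of 11 were higher and 0 lower, beside 10.9% of all genes called higher, among them IFIT1 (2.14), MX1 (1.75) and ISG15 (1.69). In ULA day 34 4 of 11 were higher, beside 9.6% of all genes, led by GBP1 (3.69) and GBP2 (2.01). Class II genes summed to 17.7 to 18.9 CPM with OA against 37.3 to 39.1 in its control (2 of 5 tested lower), and to 40.6 to 41.7 with TGFB1 against 36.9 to 39.0 (0 of 5 called).

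**Figure D3:**
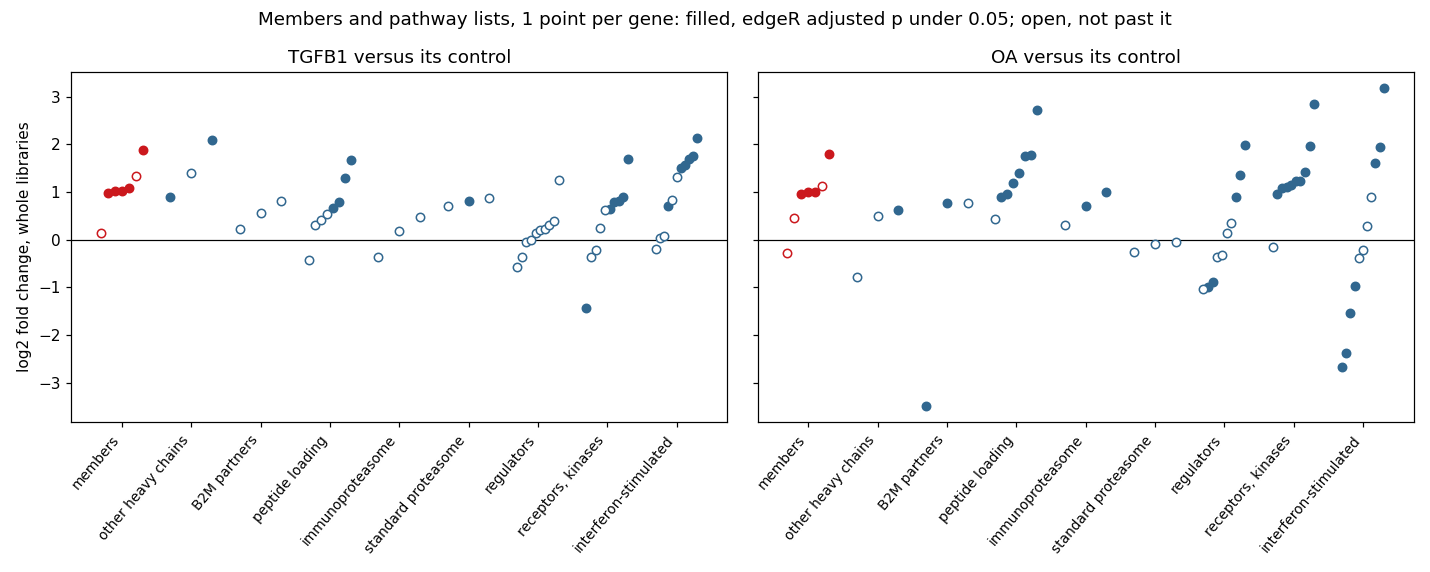
Log2 fold change in whole libraries (vertical axes) of each member (red) and of each reported gene of 8 pathway lists (blue) with TGFB1 and with OA; 1 point is 1 gene, and filled points passed an edgeR adjusted p of 0.05. Peptide loading genes passed in 7 of 8 cases with OA and 4 of 8 with TGFB1, and regulators moved in both directions with OA.

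Levels were then taken within 2 cell classes of each library. EPCAM-positive cells carried UMIs of EPCAM, an epithelial adhesion gene, and none of COL1A2 or COL3A1, and the collagen-positive cells the reverse. Marker sums within a class keep these genes, so part of each epithelial and mesenchymal sum below is set by the class rule. In the 8 shaker libraries without an agent the collagen class lay below the EPCAM class in 8 of 8 libraries for HLA-C and PSMB8. For PSMB8 PA control replicate 1 rested on 2 collagen-class UMIs (4.86 against 7.41 CPM), and TGFB1 control replicate 1 differed little (9 UMIs, 12.1 against 12.7 CPM). For TAP1 the collagen class was lower in 7, on 1 and 2 UMIs in PA control replicate 2 and TGFB1 control replicate 1, and PA control replicate 1 had 0 collagen-class UMIs, which allows up to 7.29 CPM against 2.47 CPM in its EPCAM class. HLA-C had a median of 220 CPM in EPCAM-positive cells (range 180 to 265) and of 76.7 CPM in collagen-positive cells (41.3 to 202), a log2 difference of -1.40 ± 0.238 SE within libraries (edgeR adjusted p = 0.000389). TAP1 had medians of 4.91 and 2.50 CPM (-1.46 ± 0.262 SE, edgeR adjusted p = 0.000565), and PSMB8 of 24.7 and 10.5 CPM (-1.29 ± 0.184 SE, edgeR adjusted p = 0.000102). The ranges of the classes overlapped for all 3 genes. For HLA-C they did so through TGFB1 control replicate 1, the library with the highest collagen-class level.

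HLA-B, HLA-E and B2M did not pass between the classes. Median HLA-B was 34.6 CPM in EPCAM-positive and 37.0 CPM in collagen-positive cells (log2 0.06 ± 0.235 SE, edgeR adjusted p = 0.857), and median B2M was 1149 and 1134 CPM (-0.17 ± 0.10 SE, edgeR adjusted p = 0.17). The 3 calls, all lower in collagen-positive cells, stand beside 30.1% of genes called lower and 57% called either way, a background near the members' share. In 4 ULA libraries 4 members were lower in collagen-positive cells, beside 28.7% of genes called lower and 57.4% called either way. These were TAP1 (log2 -2.75 ± 0.54 SE), HLA-C (-1.89 ± 0.073 SE), PSMB8 (-1.64 ± 0.156 SE) and HLA-E (-0.53 ± 0.111 SE), with edgeR adjusted p-values of 0.00865, 0.000165, 0.00103 and 0.0108. For TAP1 the collagen class held 2, 3 and 10 UMIs in day 21 replicates 1 to 3 and 24 in day 34 replicate 2. In ULA libraries 29.8% to 59.7% of cells carried UMIs of both classes and entered neither.

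**Figure D4:**
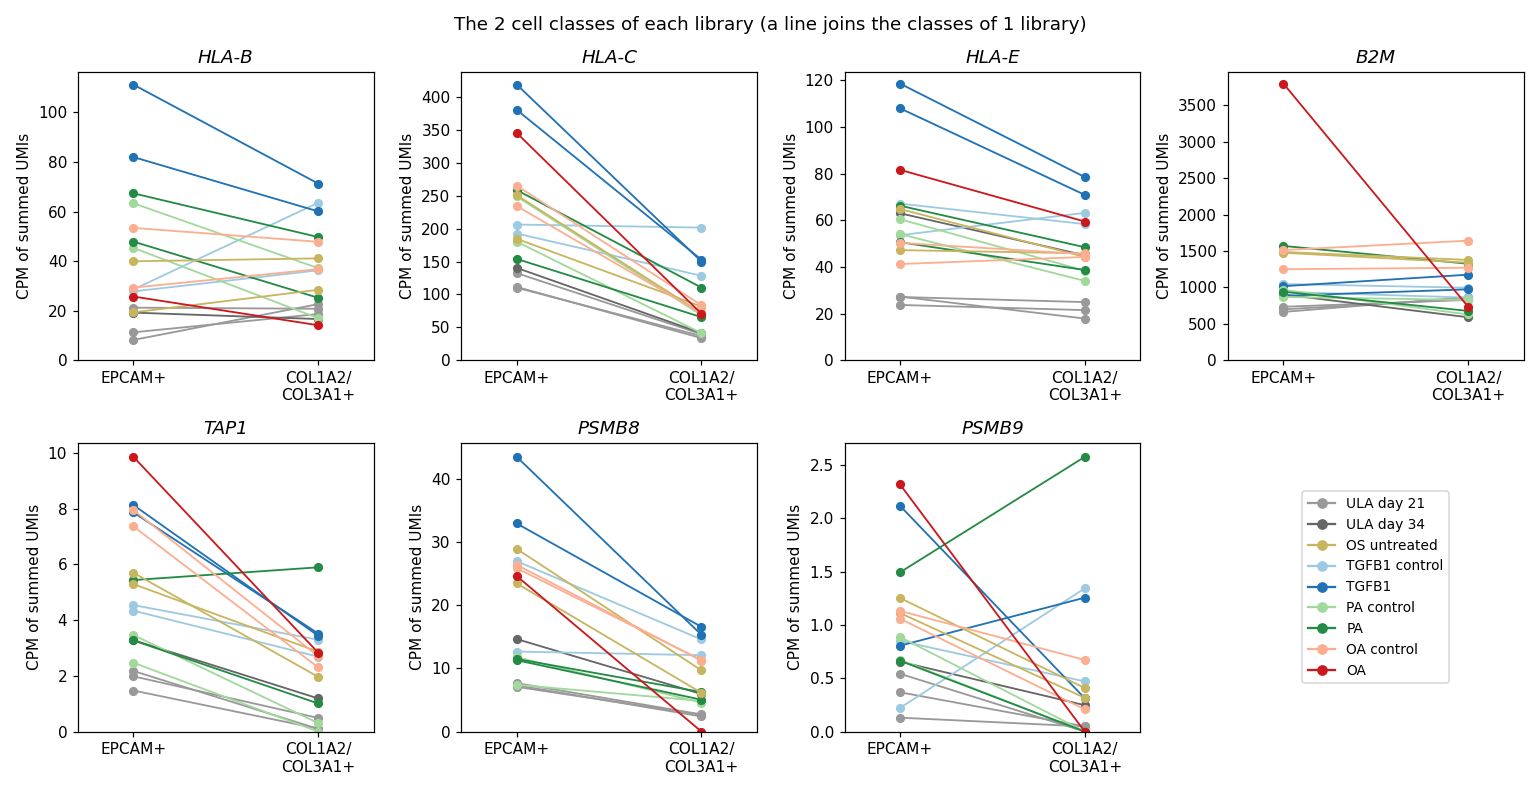
CPM of summed UMIs (vertical axes, linear, from 0) of each member in EPCAM-positive and collagen-positive cells, 1 line per library with at least 50 cells in both classes, coloured by group. HLA-C and PSMB8 lines fall in all 17 libraries, whereas HLA-B and B2M lines run in both directions.

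Within EPCAM-positive cells TGFB1 gave the 5 calls of the whole libraries. Other markers moved within this class: mesenchymal ones (1 of 4 tested higher) summed to 352 to 411 CPM with TGFB1 against 19.7 to 37.9, hepatocyte ones (3 of 5 lower) to 273 to 286 against 810 to 918, and haematopoietic ones (1 of 2 lower, LYZ, with MS4A1 at 0) to 38.7 to 48.4 against 213 to 248. Their part was not tested. HLA-B was at 27.8 and 28.6 CPM in control replicates 1 and 2 and at 111 and 82.0 CPM with TGFB1 (log2 1.97 ± 0.311 SE, edgeR adjusted p = 0.000429). HLA-C was at 206 and 193 CPM and at 419 and 380 CPM with TGFB1 (1.203 ± 0.25 SE, edgeR adjusted p = 0.00324). HLA-E (1.09), PSMB8 (1.08) and TAP1 (1.02) also rose, and B2M did not pass at 0.13 ± 0.287 SE (edgeR adjusted p = 0.778). Of 17524 genes 12.3% were called higher and 25% either way. Without TGFB1 control replicate 1 or without TGFB1 replicate 1, TAP1 and PSMB8 were lost and 3 of 7 stayed called. Library totals moved the share of higher calls from 49.2% to 32.3% and kept all 5.

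Collagen-positive cells of the same libraries gave 0 calls among 6 tested members in edgeR, with 0.0211% of genes called and 1897 at an unadjusted p under 0.05. HLA-B was at 36.3 and 63.5 CPM in their controls and at 71.3 and 60.1 CPM with TGFB1, which overlapped (log2 0.55 ± 0.368 SE, edgeR adjusted p = 0.513). HLA-C was at 202 and 128 CPM and at 150 and 153 CPM with TGFB1 (0.19 ± 0.272 SE, edgeR adjusted p = 0.781). The difference of the TGFB1 effects between the classes was tested itself. It was -1.34 ± 0.264 SE for HLA-B and -0.95 ± 0.193 SE for HLA-C, the collagen-positive cells changing less (edgeR adjusted p = 0.00205 and 0.00265), and 6.3% of 18744 genes were called. The HLA-B difference did not pass when a cell's class was set by the majority of its UMIs (-1.11, edgeR adjusted p = 0.0753) or without TGFB1 control replicate 2 (-0.70, edgeR adjusted p = 0.373), and the HLA-C difference did not without TGFB1 replicate 1 (-0.88, edgeR adjusted p = 0.0585). Collagen-positive cells were 3.92% and 4.57% of cells in the controls and 8.55% and 9.56% with TGFB1. Cells with UMIs of both classes, which entered neither, were 1.93% to 5.24% in the controls and 8.65% to 15.8% with TGFB1. In TGFB1 control replicate 1, a shallow library, 44.7% of cells had UMIs of neither, against 4.91% in control replicate 2 and 4.19% to 7.38% with TGFB1.

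In EPCAM-positive cells with OA, B2M and HLA-E were called. The class changed in other genes too, with hepatocyte markers (5 of 5 tested higher) summing to 15247 to 16751 CPM against 2262 to 2862 in the control and 2 of 4 pluripotency markers lower, and their part was not tested. B2M was at 1513 and 1251 CPM in OA control replicates 1 and 2 and at 3799 and 3757 CPM with OA (log2 1.68 ± 0.294 SE, edgeR adjusted p = 0.000711). HLA-E was at 41.3 and 50.3 CPM and at 81.6 and 66.7 CPM with OA (0.94 ± 0.221 SE, edgeR adjusted p = 0.00473), a call lost without OA replicate 1 (0.77, edgeR adjusted p = 0.0672). HLA-C was at 234 and 265 CPM and at 345 and 309 CPM with OA, without overlap, but did not pass here (0.63 ± 0.247 SE, edgeR adjusted p = 0.0605), nor did TAP1 (0.54 ± 0.244 SE, edgeR adjusted p = 0.0977). HLA-B was at 29.3 and 53.4 CPM and at 25.7 and 22.8 CPM with OA (-0.50 ± 0.301 SE, edgeR adjusted p = 0.212). Thus 2 of 7 members were called, beside 19.1% of genes called higher and 35.9% either way. Library totals moved the share of higher calls from 53.1% to 35.7%. Peptide loading genes in these cells gave the same count as whole libraries, 7 of 8 higher, among them ERAP2 (2.14), ERAP1 (1.44) and TAP2 (1.01).

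By the class rule above, collagen-positive cells with OA could be read from 1 library only, OA replicate 1 with 60 cells, since replicate 2 held 38 against a minimum of 50. The marker sums that follow cover both OA libraries, including the 38 cells of replicate 2. The class had epithelial markers at a sum of 3515 to 3972 CPM against 925 to 982 in the control, and mesenchymal markers at 3196 to 3975 against 10330 to 11266. The mesenchymal sum includes COL1A2 and COL3A1, which define the class, and the epithelial sum includes EPCAM, which the class lacks by rule. Hepatocyte markers summed to 232 to 837 CPM against 25.9 to 91.4, without overlap. The part of these markers in the OA differences between classes was not tested. B2M was at 736 CPM there (260 UMIs) against 1643 and 1271 CPM in the controls, and HLA-E was at 59.5 CPM (21 UMIs) against 44.3 and 45.5 CPM. PSMB8 had 0 UMIs, which allows up to 8.49 CPM, against 11.3 and 11.2 CPM. In edgeR none of the 6 tested members was called (3.76% of genes were, and 2376 genes had an unadjusted p under 0.05). The difference of the OA effects between the classes was called for B2M (-3.08 ± 0.247 SE, edgeR adjusted p = 6.03e-08), HLA-C (-1.24 ± 0.312 SE, edgeR adjusted p = 0.0142) and HLA-E (-1.07 ± 0.305 SE, edgeR adjusted p = 0.03), beside 8.35% of genes. PSMB8 also passed, but that rests on the 0 UMIs in 60 cells of 1 library and is not read as a difference. With a lone library the test assumes that it varies like the other groups. The median difference over all genes was -0.80, and the B2M difference was larger in size than that while those of HLA-C and HLA-E were closer to it. Without either OA control library HLA-C and HLA-E were lost. With a cell's class set by the majority of its UMIs, OA replicates 1 and 2 both passed the minimum, with 164 and 107 cells. B2M was then at 617 and 913 CPM against 1485 and 1092 CPM in the controls, HLA-E at 47.6 and 46.9 CPM against 49.3 and 53.7, and HLA-B at 14.6 and 33.3 CPM against 40.2 and 41.6. PSMB8 was at 4.33 and 11.5 CPM (8 and 11 UMIs) against 12.4 and 11.7. The difference of OA effects was then called for 3 members, B2M (-2.60), HLA-E (-1.22) and HLA-C (-0.70), in edgeR, and not for PSMB8.

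With PA no member was called in either class by the edgeR test (0.103% of genes called in EPCAM-positive cells and 0% in collagen-positive cells, where 435 and 580 genes had an unadjusted p under 0.05, and DESeq2 called 0 members). The difference of the PA effects gave 0 member calls in edgeR beside 0.0107% of genes (688 had an unadjusted p under 0.05). B2M in EPCAM-positive cells was at 941 and 1571 CPM with PA against 967 and 870 CPM, so that PA replicate 2 alone was high. In collagen-positive cells 16 of the 17 TAP1 UMIs with PA came from replicate 2, and the PA control held 1 in all. The OA control and untreated libraries gave 0 member calls in both classes in edgeR and DESeq2, beside 1.29% and 0.0352% of genes, and unadjusted p-values under 0.05 in 3053 and 1807. Their difference between the classes gave 0 in edgeR, beside 0.16% of genes and 1295 with an unadjusted p under 0.05.

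In ULA organoids HLA-E was called in both classes, with 1 day 34 library in the EPCAM class, where the spread comes from the day 21 libraries alone. Other markers moved within the classes. The EPCAM-class sums cover both day 34 libraries, including the 23 cells of replicate 1. Hepatocyte markers summed to 838 to 2422 CPM against 4883 to 6337 on day 21, and mesenchymal ones to 78.7 to 130 against 14.9 to 23.8. Haematopoietic ones summed to 130 to 316 against 357 to 469, with LYZ lower and PTPRC, CD3E and MS4A1 at 0 on day 34. Some pluripotency markers were lower too. In the collagen class 2 of 4 epithelial markers were higher (746 to 2679 CPM against 729 to 965) and 2 of 3 pluripotency markers lower. Their part was not tested. In collagen-positive cells HLA-E was at 24.9, 21.5 and 17.9 CPM on day 21 and at 54.4 and 44.99 CPM on day 34 (log2 1.09 ± 0.181 SE, edgeR adjusted p = 0.00728). PSMB8 there was at 2.66, 2.72 and 2.40 CPM and at 9.14 and 5.95 CPM on day 34 (1.42 ± 0.262 SE, edgeR adjusted p = 0.0104), beside 11.5% of genes called higher and 19.4% either way. The PSMB8 call was lost without day 21 replicate 1 (edgeR adjusted p = 0.0617) or replicate 3 (0.0566). In EPCAM-positive cells, where day 34 rested on replicate 2 alone because replicate 1 held 23 such cells, HLA-E was at 27.1, 23.7 and 27.3 CPM and at 63.0 CPM on day 34 (0.90 ± 0.195 SE, edgeR adjusted p = 0.00933, 10% of genes called higher and 19.1% either way). Library totals moved the share of higher calls from 59.2% to 74.3% in collagen-positive and from 52.7% to 82.2% in EPCAM-positive cells.

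The HLA-E changes of the classes differed by 0.02 ± 0.20 SE (edgeR adjusted p = 0.971). For B2M the difference was -0.68 ± 0.125 SE (edgeR adjusted p = 0.00032), beside 22.9% of genes called. It was at 868, 829 and 845 CPM in collagen-positive cells on day 21 and at 723 and 591 CPM on day 34, and at 665, 735 and 700 CPM in EPCAM-positive cells on day 21 and at 904 CPM on day 34. The direction within EPCAM-positive cells depended on scaling, at log2 -0.00068 ± 0.213 SE with TMM (edgeR adjusted p = 0.999) and 0.37 with library totals, and neither passed. The B2M difference did not pass with the majority rule for classes (-0.20, edgeR adjusted p = 0.549).

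**Figure D5:**
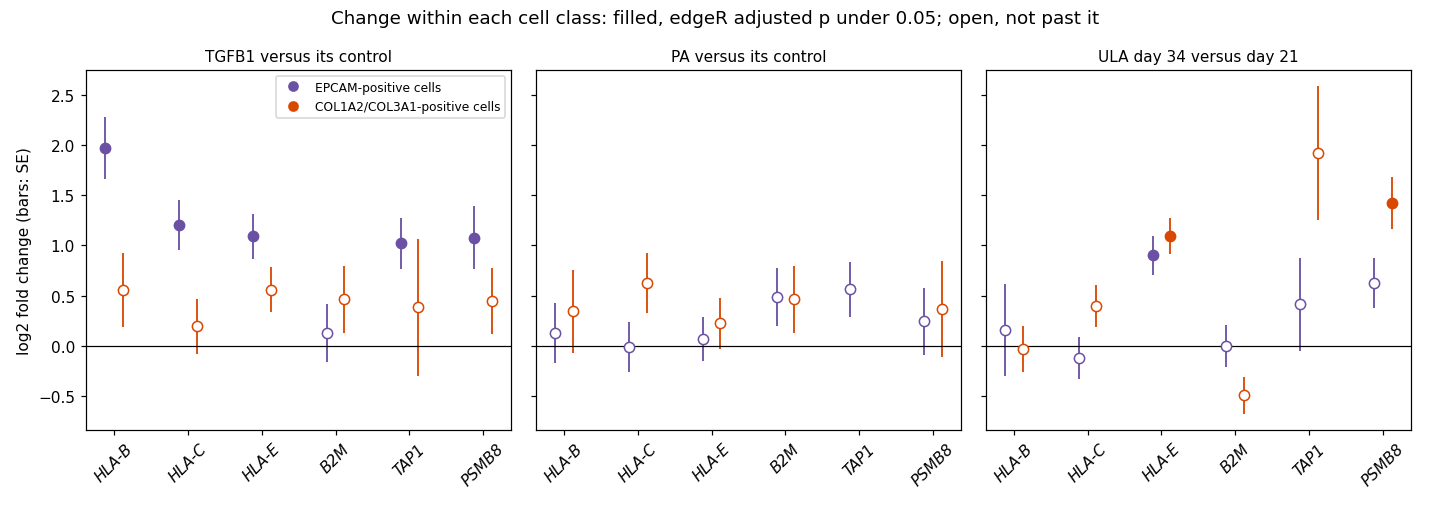
Log2 fold change (vertical axis) of 6 members in EPCAM-positive (purple) and collagen-positive (orange) cells in 3 comparisons; bars are standard errors, filled points passed an edgeR adjusted p of 0.05, and TAP1 in collagen-positive cells with PA is left out because its control held 1 UMI. With TGFB1 the HLA-B change was 1.97 in EPCAM-positive and 0.55 in collagen-positive cells, while HLA-E passed in both classes of ULA organoids, with 1 day 34 library in the EPCAM class.

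Across the 14 shaker libraries the members did not vary as a unit. These libraries span both kinds of matrix named above, which the correlations do not separate. As a description over libraries that share their treatments, Pearson's r of log2 levels was 0.83 between HLA-C and TAP1, 0.79 between TAP1 and PSMB8 and 0.75 between HLA-C and HLA-E. HLA-B and B2M gave -0.52, HLA-B and TAP1 0.01, and HLA-E and B2M 0.02. The 6 genes whose log2 levels most resembled the members' mean standardised level, among 8736 genes with a mean of at least 10 CPM, were REEP5 (r = 0.966), PNP (0.953), GLRX2 (0.952), AIFM2 (0.943), EFHD2 (0.942) and TMEM50A (0.941). REEP5 averaged 274 CPM with TGFB1 and 244 with OA, and 109 to 156 CPM in the other 5 shaker groups.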

How the data were processed

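The authors deposited unnormalized UMI counts for 19 libraries, genes by barcodes. Per the submitters' processing notes the tools were bcl2fastq, Cell Ranger 3.0.2 and Scanpy, with build GRCh38. Per the file headers, 6 matrices name version 6.0.2 (OA, OA control and untreated) and 13 name 3.0.2. Deposited barcodes held at least 500 UMIs. Total counts ran from 7476533 to 92522222 UMIs per library, so low genes such as PSMB9 are imprecise. Genes listed in all 19 matrices (32703) were used.

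A cell entered with 500 or more genes and 20% or less of its UMIs mitochondrial. No doublet caller was run. Counts were summed per library, or per class with at least 50 cells, and tested with edgeR 4.0.16 (quasi-likelihood, TMM, filterByExpr, Benjamini-Hochberg adjusted p under 0.05). The 14 shaker libraries shared a fit and the 5 ULA libraries another. Class contrasts and differences of effects had a library block. Floors are 3 counts and cover counting error only. DESeq2 1.42.0 was an alternative, as were other filters, scalings, class gates, replicate blocks and left-out libraries. Tests were checked on simulated data. The members, lists and motifs were chosen with earlier results of these data known. The 7 members are named throughout, and list genes past the threshold by size, at most 6 a list and comparison. A gene of the regulator list is not reported here. The majority gate, crossed block and library totals were added after seeing the data.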

Additional observations from a re-analysis of the deposited data

Results flagged for a closer look

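The members below stood out because their change between 2 conditions differed between EPCAM-positive and collagen-positive cells, by a test of that difference across all genes. Values are log2 change in collagen-positive cells minus that in EPCAM-positive cells, with the SE. With TGFB1 the difference was -1.34 ± 0.264 for HLA-B (edgeR adjusted p = 0.00205) and -0.95 ± 0.193 for HLA-C (edgeR adjusted p = 0.00265). HLA-B did not pass with the majority rule for classes (-1.11, edgeR adjusted p = 0.0753) or without TGFB1 control replicate 2 (-0.70, edgeR adjusted p = 0.373), nor HLA-C without TGFB1 replicate 1 (-0.88, edgeR adjusted p = 0.0585). With OA it was -3.08 ± 0.247 for B2M (edgeR adjusted p = 6.03e-08), -1.24 ± 0.312 for HLA-C (edgeR adjusted p = 0.0142) and -1.07 ± 0.305 for HLA-E (edgeR adjusted p = 0.03), all resting on 60 collagen-positive cells of 1 OA library. The median of this difference over all genes was -0.80, and the HLA-C and HLA-E calls were lost without either OA control library. Between ULA day 34 and day 21 it was -0.68 ± 0.125 for B2M (edgeR adjusted p = 0.00032), with EPCAM-positive cells of 1 day 34 library. It did not pass with the majority rule for classes (-0.20, edgeR adjusted p = 0.549). No group held 4 or more libraries, so no single library could be tested for standing apart.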

How the results depend on the processing

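Limits come first. Each shaker group has 2 libraries, PSMB9 and TAP1 rest on few UMIs, and collagen-positive cells with OA and EPCAM-positive cells of ULA day 34 rest on 1 library each. Of 1358 recomputed values 1134 kept direction and side of the threshold, 117 became weaker, 59 stronger and 48 reversed.

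Replicate numbers are shared by label only. Replicate 1 minus replicate 2 correlated between the groups by -0.282 (TGFB1), 0.095 (PA), 0.033 (OA), -0.488 (OA control and untreated) and -0.303 (ULA). The replicate block left the members called at 5 with TGFB1 and 4 with OA, took ULA from 1 to 0 (HLA-E 1.09, edgeR adjusted p = 0.133), and gave 5 genes with PA, 7 for the OA control and 0 for ULA. Of member values in single comparisons the block changed 2 other calls, both in collagen-positive ULA cells (PSMB8 lost at 1.34, TAP1 gained at 3.04). Pairing the numbers crosswise gave 218 genes for the OA control and 4693 for TGFB1.

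Members called with library totals were 3 with TGFB1 and 2 in EPCAM-positive ULA cells, DESeq2 called 2 in ULA, and the majority gate left 1 in the TGFB1 and 0 in the ULA difference of effects. Leaving out 1 library gave 2 to 6 members with TGFB1 (3 to 6 in EPCAM-positive cells, 1 to 2 for the difference), 2 to 4 with OA (1 to 2, and 2 for the difference), 0 to 1 in ULA (1 to 3 in collagen-positive cells and for the difference). All genes called with 1 library left out ran from 1704 to 5552 (TGFB1, 4293 with all), 0 to 20 (PA, 9), 5164 to 6564 (OA, 8375), 0 to 164 (OA control, 111) and 669 to 6696 (ULA, 3285). For PA, DESeq2 called 54, library totals 17, no count filter 162 and the 4 libraries alone 16. For the OA control DESeq2 called 702, library totals 255, no count filter 523, no likely doublets 48 and the 4 libraries alone 0. Without likely doublets ULA gave 1668.

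Signs reversed in the values below, none of which had passed. With library totals B2M was -0.040 (TGFB1), -0.062 (its EPCAM-positive cells) and -0.093 (OA control), HLA-C -0.10 (collagen-positive cells, TGFB1), PSMB8 -0.18 (EPCAM-positive cells, OA), HLA-B 0.00095 in ULA and 0.089 in its collagen-positive cells, and HLA-C 0.25 and B2M 0.37 in EPCAM-positive ULA cells. These last 2 were 0.14 and 0.19 with at least 2 UMIs of the class gene, and B2M 0.012 in DESeq2. Without likely doublets HLA-E was 0.024 (OA control) and HLA-B 0.066 (ULA), a stricter cell filter gave HLA-C -0.030 (PA), and the majority gate gave HLA-B -0.062 between classes. Leaving out 1 library gave ranges across 0. For TGFB1 they were B2M -0.048 to 0.38. For EPCAM-positive TGFB1 they were B2M -0.037 to 0.34. For PA they were HLA-B -0.086 to 0.49, HLA-C -0.33 to 0.45, HLA-E -0.010 to 0.30. For EPCAM-positive PA they were HLA-B -0.15 to 0.36, HLA-C -0.43 to 0.33, HLA-E -0.13 to 0.25, PSMB9 -0.26 to 0.92. For collagen-positive PA they were HLA-B -0.31 to 1.17, B2M -0.11 to 0.86. For EPCAM-positive OA they were PSMB8 -0.071 to 0.19. For OA control they were HLA-E -0.063 to 0.038, B2M -0.19 to 0.28, PSMB9 -0.093 to 1.04. For ULA they were HLA-B -0.64 to 0.26, PSMB9 -0.64 to 1.11. For EPCAM-positive ULA they were HLA-B -0.11 to 0.62, B2M -0.038 to 0.051. For collagen-positive ULA they were HLA-B -0.47 to 0.28. For shaker class contrast they were HLA-B -0.14 to 0.22 (-0.0061 without TGFB1 control replicate 1). For ULA class contrast they were B2M -0.22 to 0.041. The causes were not tested. Fits without OA replicate 1 in collagen-positive cells, and ULA fits in EPCAM-positive cells with the block or without day 34 replicate 2, were not possible.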
